A study of Homo sapiens with 8 samples.

Results

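YAP1, its paralog WWTR1 (the gene of the TAZ protein), the DNA-binding partners TEAD1, TEAD2, TEAD3 and TEAD4 and the target genes CYR61, CTGF, ANKRD1 and AMOTL2 were followed in RNA-seq libraries of cells labelled A549. These 10 genes were taken by name from a count table of 58735 genes, which uses CYR61 and CTGF for the genes now called CCN1 and CCN2. The 8 libraries fall into 4 of the EV group, transduced with an empty lentiviral vector, and 4 of the KRT19 group, transduced with a lentivirus that encodes Flag-tagged KRT19. KRT19 is keratin 19, an intermediate filament protein of simple epithelia, and A549 is an established line from a human lung adenocarcinoma. Both groups share transduction, puromycin selection into stable lines and culture in RPMI-1640 with serum, and whether a line is a pool or a clone is not given. The density of the cultures at harvest is not given in the sources used here. Nothing says that the 4 libraries of a group came from separate cultures, so the p-values measure the spread between these libraries, which may be technical.

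YAP and TAZ are transcriptional co-activators at the end of the Hippo pathway. When cells are crowded or lack tension, MST kinases activate LATS kinases, and LATS phosphorylates YAP and TAZ, which holds them in the cytoplasm and promotes their breakdown. When the kinases are inactive, YAP and TAZ enter the nucleus and bind TEAD factors, which sit on enhancers and promoters of genes for growth, matrix and adhesion. This control acts largely on the proteins, whereas RNA-seq reads the transcripts of the regulators and of their targets. In lung cancer cells the pathway is known for its ties to cell density, matrix stiffness and the actin cytoskeleton. The comparison asks which of these transcripts differed between cells with added KRT19 and cells with the empty vector.

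The sites that TEAD factors are known to bind hold the letters GGAATG, or CATTCC when read on the other strand. These letters were looked for on both strands in the 250 bases before each start site in a RefSeq promoter table of GRCh38.p14. At least 1 copy was found in 11.9% of 35116 such windows, at least 2 copies in 0.940% and at least 3 in 0.0826%. Of the 10 genes, 7 had an entry, with 10 promoters in all. The motif was in 4 of these 10 promoters, which belong to 4 of the 7 genes. The upstream windows of CTGF, ANKRD1 and AMOTL2 are shown because these target genes carried copies in different number. Capitals mark GGAATG or CATTCC and, in ANKRD1, also a TGATTCA, a form of the AP-1 motif TGANTCA that 6.57% of the windows hold.
CTGF, chr6:131951373-131951622, minus strand: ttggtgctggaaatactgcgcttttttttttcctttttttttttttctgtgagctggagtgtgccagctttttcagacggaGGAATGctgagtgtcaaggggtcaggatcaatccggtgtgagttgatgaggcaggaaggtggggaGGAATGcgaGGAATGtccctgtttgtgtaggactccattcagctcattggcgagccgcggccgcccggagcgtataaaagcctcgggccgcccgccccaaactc
ANKRD1, chr10:90921088-90921337, minus strand: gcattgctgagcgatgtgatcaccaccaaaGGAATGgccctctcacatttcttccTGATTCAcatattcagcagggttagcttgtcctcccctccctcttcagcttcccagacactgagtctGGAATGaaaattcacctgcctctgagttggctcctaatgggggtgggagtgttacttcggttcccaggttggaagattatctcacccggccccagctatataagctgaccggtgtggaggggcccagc
AMOTL2, second promoter, chr3:134374448-134374697, minus strand: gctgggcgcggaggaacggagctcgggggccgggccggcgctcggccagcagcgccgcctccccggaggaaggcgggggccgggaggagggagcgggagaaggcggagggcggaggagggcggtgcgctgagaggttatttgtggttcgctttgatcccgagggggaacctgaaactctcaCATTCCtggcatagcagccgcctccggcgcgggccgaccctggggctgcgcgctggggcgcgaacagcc
Counted from the start site, the CTGF copies begin at -169, -104 and -95 and the ANKRD1 copies at -220 and -128, with the AP-1 letters of ANKRD1 at -195. AMOTL2 had 1 copy in the reverse orientation at -69 in its second promoter and none in its first. YAP1 had 1 copy at -162, and the promoters of WWTR1, TEAD2 and TEAD3 had none. CYR61, TEAD1 and TEAD4 were not matched in the table. A match of letters is a description of these windows and not a measured binding site.

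KRT19 itself set the groups apart. It had 1 to 5 counts in EV libraries and 4353 to 5147 in KRT19 libraries, a mean of 0.166 ± 0.0975 against 304.8 ± 11.04 CPM (counts relative to the TMM-scaled library total, SD, n = 4 each). The difference was 10.75 on the log2 scale (edgeR adjusted p = 5.19e-20). Total counts lay between 14073065 and 17054364 per library. KRT8 and KRT18, keratins of simple epithelia, were expressed at 189.3 to 346.9 CPM. Other markers went against the label. The epithelial genes EPCAM and CDH1 had at most 3 and 1 counts in any library. The NRF2 targets AKR1C1, AKR1C2 and AKR1B10, known to be high in A549, summed to 1.93 to 3.69 CPM, while CDKN2A and MTAP, known to be deleted there, had 94.2 to 107.9 and 41.8 to 50.9 CPM. The lung genes NKX2-1 and NAPSA had at most 4 and 6 counts and SFTPB and SFTPC had 0, which A549 in culture is also known to express little or not at all. The cells are therefore called cells labelled A549. The extraction text of the labels names retina, but SAG had 0 counts in all libraries and CRX at most 1.

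Of the 10 genes, CTGF was higher in the KRT19 group by the unadjusted threshold of the study, by 13.9%, and the other 9 did not pass it. For reading this count of 1 in 10, 5.41% of all 14621 genes tested had an unadjusted edgeR p under 0.05, 2.85% higher and 2.56% lower in the KRT19 group. None of the 10 passed a threshold adjusted over all genes tested, which 0.00684% of them did, and that was KRT19 itself. For 1 of the 10, CTGF, every library of one group lay above every library of the other, as for 3.44% of all tested genes (1.63% higher and 1.81% lower). All 10 passed the filter on low counts. Fitted values of YAP1, WWTR1 and TEAD1 differed by at most 4.23% between the groups, and the fitted values of CYR61 and AMOTL2 were 5.84% and 4.87% above EV, with intervals that include 0. By the sign of the fitted difference, 7 genes were higher and 3 lower in the KRT19 group, with a median of 0.056 on the log2 scale beside 0.0051 for all tested genes.

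**Figure D1:**
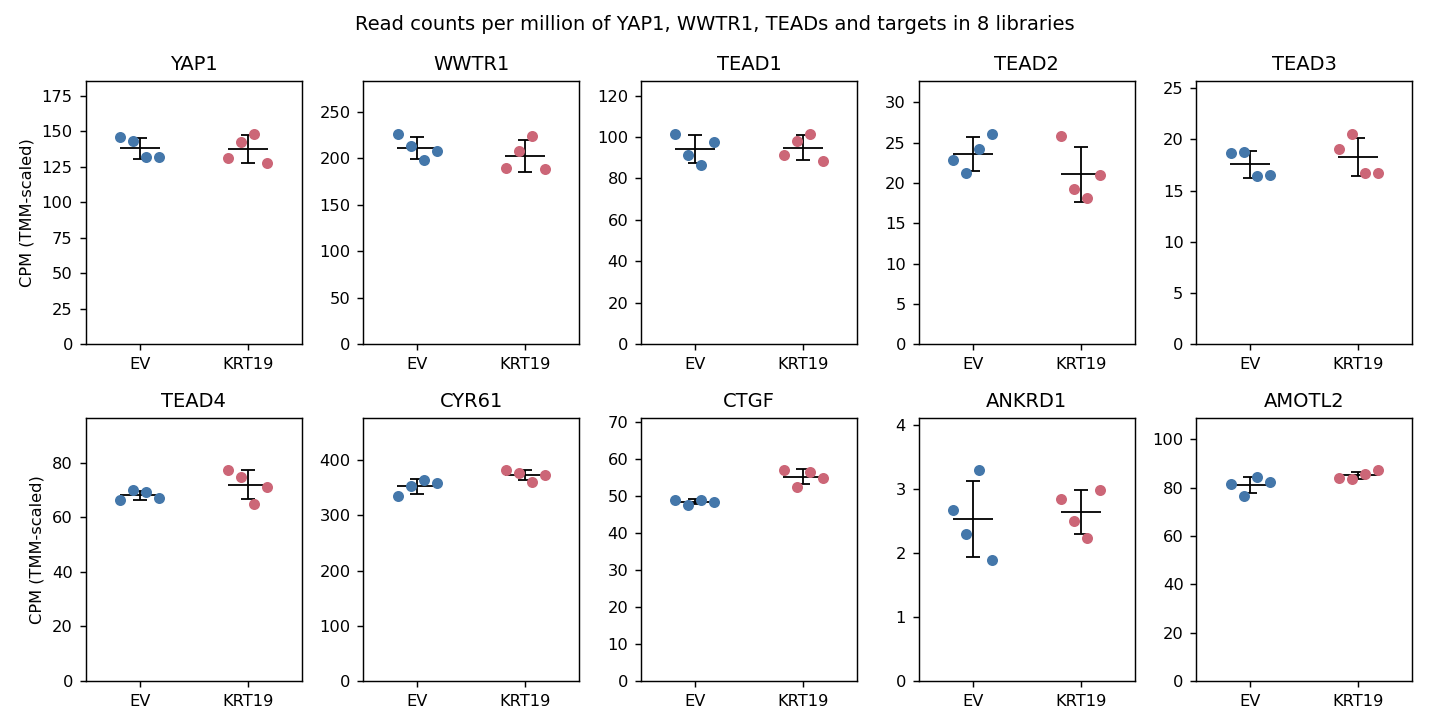
CPM (TMM-scaled, vertical axes starting at 0) of the 10 genes in 4 EV (blue) and 4 KRT19 (red) libraries, with 1 point per library and bars for the mean and SD. The groups overlap in 9 of the 10 panels, and in the CTGF panel the KRT19 libraries (52.5 to 56.9 CPM) lie above the EV libraries (47.4 to 49.0 CPM).

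To compare the genes with each other, counts were divided by the gene length of the deposited table and scaled to a common total per library, which gives TPM. That length is a single value per gene and can exceed the length of any 1 transcript, so the order holds for this measure. CYR61, a secreted matrix protein, stood highest at 531.1 ± 19.4 TPM over the 8 libraries (SD). TEAD4 followed at 110.8 ± 6.33 TPM, the highest of the 4 TEAD genes, and its libraries did not overlap with those of WWTR1 below it. WWTR1 at 88.4 ± 7.34, CTGF at 79.6 ± 5.90 and YAP1 at 78.8 ± 5.59 TPM were close. WWTR1 exceeded CTGF in 6 of 8 libraries and CTGF exceeded YAP1 in 3 of 8, with overlapping ranges, so the order among these neighbours was within the spread. By group, CTGF exceeded YAP1 in 0 of 4 EV libraries (means 74.4 and 78.9 TPM) and in 3 of 4 KRT19 libraries (84.8 and 78.6 TPM), and WWTR1 exceeded CTGF in 4 of 4 and 2 of 4. AMOTL2, which encodes an angiomotin-like scaffold that binds YAP, lay at 49.95 ± 1.86 TPM, apart from YAP1 above it and TEAD1 below it. TEAD1 at 33.1 ± 2.52, TEAD2 at 26.9 ± 3.36 and TEAD3 at 21.2 ± 2.01 TPM came next, and their ranges over libraries overlapped from each to the next. Within libraries TEAD1 exceeded TEAD2 in 8 of 8 and TEAD2 exceeded TEAD3 in 7 of 8. ANKRD1, an ankyrin-repeat protein best known from muscle and often used as a YAP readout, was lowest at 4.68 ± 0.785 TPM.

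**Figure D2:**
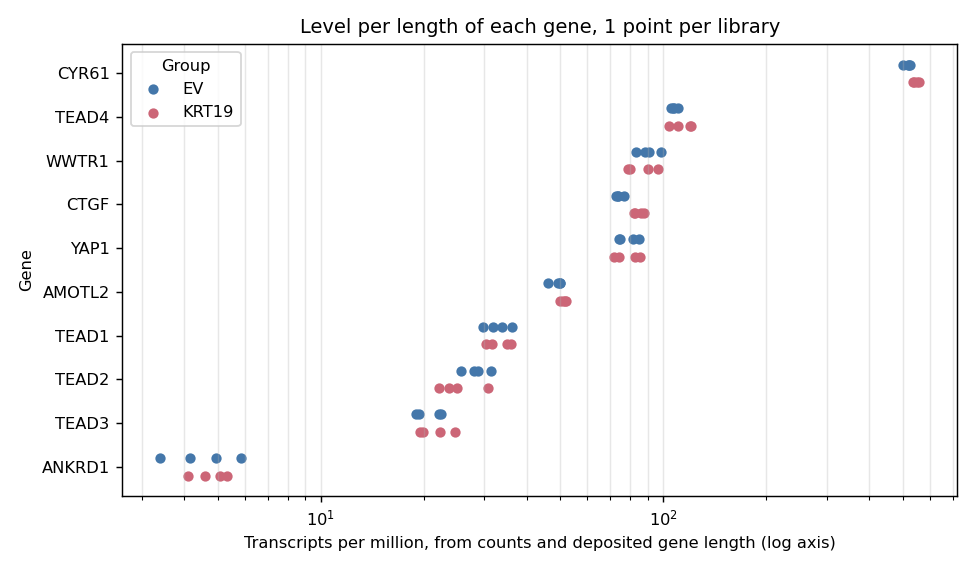
Level per gene length, in TPM on a log axis, of the 10 genes in the 4 EV (blue) and 4 KRT19 (red) libraries, 1 point per library, ordered by the mean. CYR61 lies at 499.9 to 560.1 TPM and ANKRD1 at 3.40 to 5.87 TPM, with the YAP1, CTGF and WWTR1 points side by side.

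YAP1 (ENSG00000137693, GRCh38 chromosome 11, 102110461-102233423, plus strand) had 146.0, 143.0, 132.0 and 131.9 CPM in EV replicates 1 to 4 and 131.4, 142.6, 148.4 and 127.8 CPM in KRT19 replicates 1 to 4. The groups overlapped across nearly the whole range, and the highest and the lowest library were both KRT19 libraries. The means were 138.2 ± 7.32 and 137.6 ± 9.58 CPM (SD, n = 4 each). The log2 difference was -0.0065 ± 0.059 (SE, 95% interval -0.13 to 0.12, edgeR adjusted p = 0.992). The exact permutation test of the library labels gave p = 0.857, where 4 libraries against 4 allow no value under 0.0286. In percent the interval ran from -8.62% to 8.46%, and differences of YAP1 within it were not detectable with these libraries.

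WWTR1 (ENSG00000018408, chromosome 3, 149517235-149736714, minus strand) had 226.4, 212.8, 197.6 and 207.8 CPM in the EV libraries and 189.3, 207.4, 224.0 and 188.0 CPM in the KRT19 libraries. KRT19 replicates 1 and 4 were the lowest of all 8, while KRT19 replicate 3 was close to the highest EV library. With means of 211.2 ± 12.0 and 202.2 ± 17.1 CPM (SD, n = 4 each), the difference of -0.062 ± 0.061 on the log2 scale (SE, 95% interval -0.19 to 0.066) did not pass the test (edgeR adjusted p = 0.927, exact permutation p = 0.400). Without KRT19 replicate 3 the value was -0.12 (edgeR unadjusted p = 0.0351), and without EV replicate 1, KRT19 replicate 1 or KRT19 replicate 4 it was -0.027, -0.032 and -0.029 (edgeR unadjusted p = 0.677, 0.619 and 0.668). By limma-voom the WWTR1 value was -0.11 (limma-voom unadjusted p = 0.0355). After removal of trends with GC content and gene length it was -0.095 (edgeR unadjusted p = 0.0266), and with the replicate block added -0.096 (edgeR unadjusted p = 0.0512).

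The balance of the 2 co-activators was taken as the share of YAP1 in the sum of both, in counts per kilobase. It was 46.3%, 47.3%, 47.2% and 45.9% in EV libraries and 48.1%, 47.9%, 46.95% and 47.6% in KRT19 libraries. WWTR1 thus made up the larger share in every library. The means, 46.7% ± 0.686 and 47.6% ± 0.507 (SD, n = 4 each), differed by 0.981 percentage points, which was not past the threshold (exact permutation p = 0.0857, adjusted over 5 shares 0.238). YAP1 and WWTR1 varied together across libraries, and TEAD1 with them. Over the 8 libraries the Pearson r of log2 CPM was 0.903 for YAP1 with WWTR1, 0.732 for YAP1 with TEAD1 and 0.803 for WWTR1 with TEAD1. The Spearman values were 0.905, 0.667 and 0.714. These 3 pairs were chosen after their values had been seen, so they are given without a test. Without the 2 libraries farthest from the median of the first gene, r was 0.821, 0.553 and 0.796.

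Base composition differed between the genes that varied together and the other TEAD genes. The longest transcripts of WWTR1, TEAD1 and YAP1 have 40.9%, 41.3% and 43.5% G and C, and those of TEAD2, TEAD3 and TEAD4 58.4%, 59.8% and 60.4%. KRT19 replicate 3 was highest of the 8 libraries for YAP1, level with the highest for TEAD1, and lowest for TEAD2 and TEAD4. In that library GC content and gene length accounted for 16.4% of the deviation of all genes from their means, the most of the 8, against 11.9% in EV replicate 3, 10.0% in KRT19 replicate 1 and 0.425% to 5.29% in the others. After trends with GC content and length were removed from each library, r fell to 0.759 for YAP1 with WWTR1, 0.456 for YAP1 with TEAD1 and 0.544 for WWTR1 with TEAD1. Without the 2 farthest libraries these were 0.692, 0.382 and -0.442, so the relation of WWTR1 with TEAD1 then rested on those libraries.

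**Figure D3:**
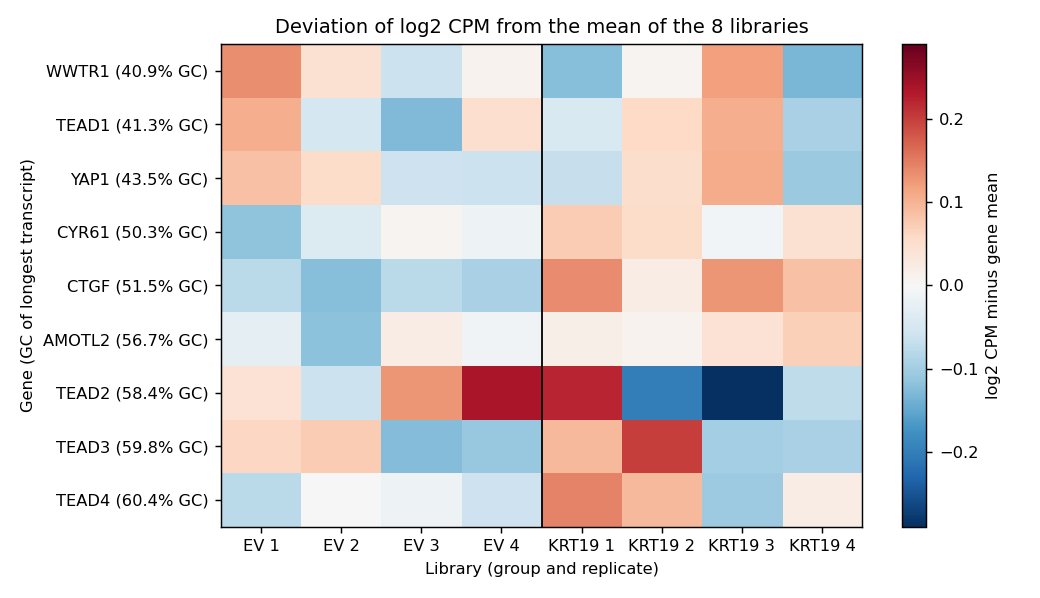
Deviation of log2 CPM from the mean of the 8 libraries for 9 genes (rows, ordered by the GC percent of the longest transcript), with EV libraries left and KRT19 libraries right of the line and colours from blue (below the mean) to red (above). WWTR1, TEAD1 and YAP1 share their colours in most libraries, CTGF is below its mean in 4 EV and above it in 4 KRT19 libraries, and ANKRD1 is left out for its low counts.

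The 4 TEAD genes encode the DNA-binding partners, which share a DNA-binding domain and differ in the tissues that use them. TEAD1 (ENSG00000187079, chromosome 11, 12674591-12944483, plus strand) had 101.6, 91.1, 86.4 and 97.55 CPM in EV libraries and 91.5, 98.2, 101.6 and 88.3 CPM in KRT19 libraries. The highest EV and the highest KRT19 library were level, and the groups overlapped. The difference was 0.012 ± 0.063 on the log2 scale (SE, 95% interval -0.12 to 0.14, edgeR adjusted p = 0.984).

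TEAD2 (ENSG00000074219, chromosome 19, 49340595-49362457, minus strand) varied most among the TEAD genes, with a coefficient of variation of 13.2% between libraries. It had 22.8, 21.2, 24.2 and 26.1 CPM in EV libraries and 25.8, 19.3, 18.1 and 21.0 CPM in KRT19 libraries. Of the KRT19 libraries 3 lay below every EV library, and replicate 1 lay above 3 of the 4 EV libraries. The means were 23.6 ± 2.09 and 21.1 ± 3.41 CPM (SD, n = 4 each), a log2 difference of -0.16 ± 0.10 (SE, 95% interval -0.38 to 0.049) that did not pass the test (edgeR adjusted p = 0.906, exact permutation p = 0.200). Without KRT19 replicate 1 the difference was -0.28 (edgeR unadjusted p = 0.00555), and without KRT19 replicate 3 it was -0.093 (edgeR unadjusted p = 0.327). TEAD2 overlaps CD37 and DKKL1 on the opposite strand, whose counts came to 20.7% and 6.64% of those of TEAD2. The strand setting of the counting is not given in the sources used here, so reads of these genes and of TEAD2 cannot be told apart where they overlap.

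TEAD3 (ENSG00000007866, chromosome 6, 35473597-35497076, minus strand) lay between 16.4 and 18.8 CPM in EV libraries and between 16.7 and 20.6 CPM in KRT19 libraries. The groups overlapped, with a difference of 0.054 ± 0.089 on the log2 scale (SE, edgeR adjusted p = 0.959). TEAD4 (ENSG00000197905, chromosome 12, 2959330-3040673, plus strand) had 66.2, 69.9, 69.2 and 67.1 CPM in EV libraries and 77.3, 74.7, 65.0 and 71.0 CPM in KRT19 libraries. KRT19 replicates 1, 2 and 4 exceeded every EV library, and replicate 3 was the lowest of the 8. The means of TEAD4 were 68.1 ± 1.73 and 72.0 ± 5.32 CPM (SD, n = 4 each), and the difference of 0.079 ± 0.060 on the log2 scale (SE, 95% interval -0.048 to 0.21) did not pass the test (edgeR adjusted p = 0.916, exact permutation p = 0.257). Without KRT19 replicate 3 it was 0.13 (edgeR unadjusted p = 0.0302), and without KRT19 replicate 1 it was 0.042 (edgeR unadjusted p = 0.511).

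Per kilobase, TEAD4 made up the largest share of the TEAD transcripts in every library, between 55.2% and 59.6%. TEAD4 took 56.8% ± 1.63 of them (EV) against 58.7% ± 1.06 (KRT19, SD, n = 4 each), 1.91 percentage points more (exact permutation p = 0.143, adjusted over 5 shares 0.238). TEAD2 took 15.0% ± 1.30 and 13.1% ± 1.51 (SD, n = 4 each), a difference of -1.93 points (exact permutation p = 0.143, adjusted 0.238). TEAD1 and TEAD3 stood at 17.3% and 10.9% in EV and 17.2% and 11.1% in KRT19 libraries, differences within the spread. The mix of the 4 factors was thus led by TEAD4 in both groups, and no shift between groups passed the test.

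Among the targets, CTGF showed the clearest separation. CTGF (ENSG00000118523, chromosome 6, 131948176-131951373, minus strand) encodes a secreted connective tissue growth factor and is the gene above with 3 copies of the TEAD letters. It had 49.0, 47.4, 49.0 and 48.4 CPM in EV libraries and 56.9, 52.5, 56.5 and 54.85 CPM in KRT19 libraries. Every KRT19 library was above every EV library, and the 4 EV values were close together. The means were 48.5 ± 0.736 and 55.2 ± 2.00 CPM (SD, n = 4 each), from 736 to 823 counts per EV library and 738 to 965 per KRT19 library. The difference was 0.19 ± 0.054 on the log2 scale (SE, 95% interval 0.074 to 0.30), or 13.9% (5.28% to 23.3%), with an unadjusted edgeR p of 0.00284, rank 45 of 14621. Adjusted over all genes it did not pass (edgeR adjusted p = 0.869). The exact permutation test gave 0.0286, the smallest p that 4 against 4 libraries allow. In all 18 alternative settings the CTGF value stayed between 0.17 and 0.21 with an unadjusted p of 0.000258 to 0.0151 and an adjusted p of 0.118 to 0.999. Of these settings 1, without KRT19 and mitochondrial genes in the library sizes, gave the main values again. VIM, a mesenchymal filament gene, lay between 2448.9 and 2548.4 CPM over the EV libraries and was lower, between 2284.7 and 2369.1 CPM, over the KRT19 libraries (-0.093 on the log2 scale, edgeR unadjusted p = 0.0348). Of the 4 mesenchymal markers 2 were tested. VIM was the 1 of these 2 with an unadjusted p under 0.05 and no overlap (beside 5.41% and 3.44% of all tested genes). The 4 markers summed to 2452.2 to 2550.6 CPM in EV and 2287.7 to 2371.7 CPM in KRT19 libraries. Nearly all of this was VIM, since COL1A1 stayed at or below 3.26 CPM, COL3A1 had at most 4 counts and PDGFRB at most 6. The 3 blood and endothelial markers summed to 1.24 to 1.52 CPM in EV and 0.596 to 1.17 CPM in KRT19 libraries, with PECAM1 at 8 to 24 counts, CDH5 at most 5 and PTPRC at most 1, and PECAM1, the 1 of them tested, did not pass the unadjusted threshold (-0.51 on the log2 scale). The part of these differences in the CTGF result was not tested, and in bulk RNA fewer cells of a type and less RNA per cell cannot be told apart.

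CYR61 (ENSG00000142871, chromosome 1, 85580761-85583962, plus strand), a matricellular protein of the same family as CTGF, had 334.5, 352.7, 364.5 and 358.7 CPM in EV libraries and 381.8, 376.5, 360.8 and 373.9 CPM in KRT19 libraries. KRT19 replicates 1, 2 and 4 lay above all EV libraries, and replicate 3 lay below EV replicate 3. The means of 352.6 ± 13.0 and 373.3 ± 8.91 CPM (SD, n = 4 each) differed by 0.082 ± 0.045 on the log2 scale (SE, 95% interval -0.014 to 0.18), which did not pass the test (edgeR unadjusted p = 0.0883, adjusted p = 0.906, exact permutation p = 0.0571). With 5026 to 6324 counts per library this was the most deeply counted of the 10 genes. CYR61 passed the unadjusted threshold when KRT19 replicate 3 was left out, with a value of 0.098, by limma-voom, and after removal of GC and length trends, without and with the replicate block.

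AMOTL2 (ENSG00000114019, chromosome 3, 134355874-134375479, minus strand) had 81.5, 76.5, 84.3 and 82.5 CPM in EV libraries and 84.2, 83.8, 85.5 and 87.2 CPM in KRT19 libraries. The groups overlapped through EV replicate 3, which exceeded the KRT19 replicates 1 and 2. The difference of 0.069 ± 0.052 on the log2 scale (SE, 95% interval -0.041 to 0.18) did not pass the test (edgeR adjusted p = 0.915, exact permutation p = 0.0857), and without EV replicate 2 it was 0.040. ANKRD1 (ENSG00000148677, chromosome 10, 90912096-90921276, minus strand) had 40, 38, 54 and 32 counts in EV libraries and 47, 35, 38 and 45 counts in KRT19 libraries. Its means were 2.53 ± 0.596 and 2.63 ± 0.340 CPM (SD, n = 4 each), and the highest and the lowest library were both EV. The difference was 0.058 ± 0.20 on the log2 scale (SE, 95% interval -0.36 to 0.47, edgeR adjusted p = 0.977), and limma-voom gave 0.27. At this depth a difference of the size seen in CTGF was not detectable in ANKRD1.

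**Figure D4:**
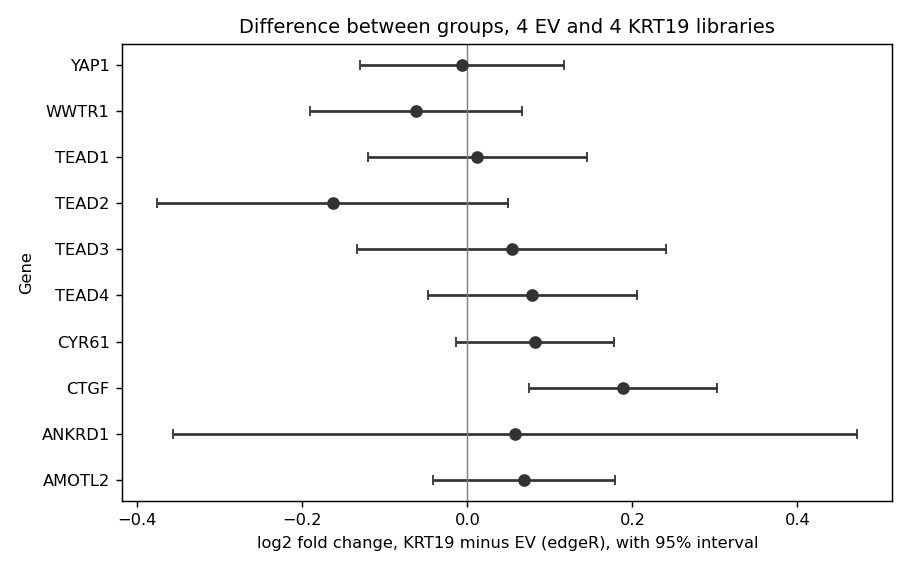
Fitted log2 difference between the KRT19 and EV groups (horizontal axis, edgeR) for the 10 genes, with 95% intervals as bars and a line at 0. The interval of CTGF (0.074 to 0.30) lies above 0, the other 9 include 0, and that of ANKRD1 (-0.36 to 0.47) is the widest.

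To see whether the targets varied together, the 6 pairs of CYR61, CTGF, ANKRD1 and AMOTL2 were correlated over the 8 libraries. CTGF and AMOTL2 had a Pearson r of 0.717 (exact permutation p = 0.0222, adjusted over 6 pairs 0.133) and a Spearman rho of 0.667 (exact permutation p = 0.0831, adjusted 0.249). CYR61 and CTGF had r = 0.641 (exact permutation p = 0.0822, adjusted 0.247) and rho = 0.667 (exact permutation p = 0.0831, adjusted 0.249). No pair passed the adjusted threshold. Without the 2 libraries farthest from the median of the first gene, r was 0.790 for CTGF with AMOTL2 and 0.550 for CYR61 with CTGF. Centred on the group means, r was 0.398 for CTGF with AMOTL2 and -0.154 for CYR61 with CTGF. Without the 2 farthest libraries these centred values turned to -0.673 and 0.617, so within groups neither sign was stable. CYR61 and AMOTL2 had r = 0.539, and the 3 pairs with ANKRD1 had r of 0.267, 0.215 and 0.380. After removal of GC and length trends, r was 0.793 for CTGF with AMOTL2 and 0.712 for CYR61 with CTGF (exact permutation p adjusted over 6 pairs 0.0963 and 0.165).

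The upstream Hippo components were measured for comparison. The 19 listed kinases and scaffolds include MST (STK3, STK4), LATS, MOB1 and NF2, and 18 passed the filter on low counts. Of these, 13 were higher and 5 lower in the KRT19 group, none had an unadjusted p under 0.05 by edgeR, DESeq2 or limma-voom, and the median was 0.019 on the log2 scale. Over all tested genes these shares were 5.41%, 3.97% and 9.14%, so a count of 0 in a list of this size is near the background. The most abundant by counts were MAP4K4, a kinase that acts on LATS, at 282.7 ± 1.59 CPM (EV) against 286.6 ± 8.91 CPM (KRT19), and MOB1A, a LATS co-activator, at 167.8 ± 18.2 against 165.4 ± 19.7 CPM (SD, n = 4 each). The transcripts of the kinase cascade differed by -0.027 to 0.10 on the log2 scale.

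Of 10 listed proteins that bind YAP, TAZ, TEAD or LATS, 8 were tested, with 3 higher, 5 lower and a median of -0.014 on the log2 scale. AJUBA, a LIM-domain scaffold that binds LATS at junctions, averaged 47.4 ± 2.52 CPM (EV) against 51.8 ± 0.784 CPM (KRT19, SD, n = 4 each) with no overlap of the libraries. It was the 1 gene of the 8 called and the 1 with no overlap, beside 5.41% and 3.44% of all tested genes. Its difference was 0.13 ± 0.057 on the log2 scale (SE, edgeR unadjusted p = 0.0372, adjusted p = 0.906), and the unadjusted call was lost in 8 of 18 alternatives, with p up to 0.144. PTPN14 and AMOTL1, which retain YAP in the cytoplasm, had differences of -0.028 and -0.044. Of 11 polarity and junction genes 9 were tested, with 6 higher, 3 lower and a median of 0.010. FAT4, an atypical cadherin and the 1 of these 9 called (5.41% of all tested genes), averaged 25.0 ± 2.27 CPM (EV) against 21.3 ± 2.64 CPM (KRT19, SD, n = 4 each), a difference of -0.23 ± 0.091 on the log2 scale (SE, edgeR unadjusted p = 0.0197, adjusted p = 0.906). The FAT4 libraries overlapped (exact permutation p = 0.114), and the unadjusted call was lost in 2 of 18 alternatives, without EV replicate 1 (edgeR p = 0.0812) and without KRT19 replicate 3 (edgeR p = 0.0596). CTNNA1, the α-catenin that links cadherins to actin, and SCRIB, a basolateral scaffold, differed by -0.048 and 0.080. SCRIB passed the unadjusted threshold by limma-voom and after removal of GC and length trends, without and with the replicate block, but was 0.049 without EV replicate 2, and CTNNA1 was -0.016 without KRT19 replicate 3.

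Other genes known as YAP and TAZ targets were also measured. Of 18 listed, 17 were tested, 9 higher and 8 lower, none with an unadjusted p under 0.05 by any of these 3 tools, which is again near the background, at a median of 0.021 on the log2 scale and a range of -0.32 to 0.12. AXL, a receptor tyrosine kinase, averaged 737.5 ± 13.6 CPM (EV) against 760.4 ± 18.7 CPM (KRT19, SD, n = 4 each, log2 difference 0.044). MYOF, a membrane repair protein, had means of 696.1 and 674.5 CPM (log2 difference -0.046, and -0.011 without KRT19 replicate 3). Without KRT19 replicate 4 the AXL value was 0.029. With the 4 targets above, 21 targets were tested, 13 higher and 8 lower. LATS2 and PTPN14 are on 2 of the lists. Of all tested genes 52.2% were higher, 7637 against 6984.

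Genes driven by SRF and its actin-sensing cofactors MRTF, which often respond to the same mechanical cues and include cytoskeletal genes, were 5 higher and 5 lower among 10 tested of 11, at a median of -0.016 on the log2 scale. VCL, the focal adhesion protein vinculin and the 1 of these 10 called (5.41% of all tested genes), averaged 521.5 ± 18.6 CPM (EV) against 485.4 ± 14.5 CPM (KRT19, SD, n = 4 each), a difference of -0.10 ± 0.045 (SE, edgeR unadjusted p = 0.0354, adjusted p = 0.906). The VCL libraries overlapped (exact permutation p = 0.0571), and the unadjusted call was lost in 7 of 18 alternatives, 6 of them with a library left out, with p up to 0.109 under the replicate block. The cytoplasmic actins ACTB and ACTG1, with EV means of 4477.6 and 4862.6 CPM, differed by 0.030 and -0.038, and ACTB by 0.012 without KRT19 replicate 1.

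**Figure D5:**
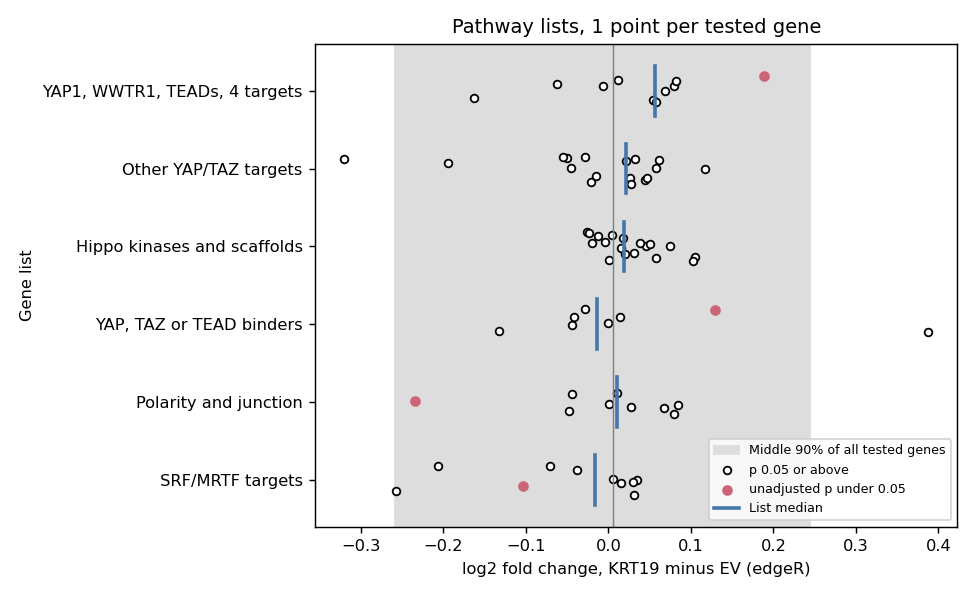
Fitted log2 difference between the KRT19 and EV groups (horizontal axis) for each tested gene of 6 lists (rows), with filled points for an unadjusted edgeR p under 0.05, blue bars for list medians and grey for the middle 90% of all tested genes (-0.26 to 0.24). The medians lie between -0.016 and 0.056, and CTGF, AJUBA, FAT4 and VCL are the filled points.

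The genes most like the mean of the 4 targets were found among 9502 genes with at least 10 CPM, by the Pearson r of log2 CPM with the mean of the standardized target values over the 8 libraries. That mean was between -1.13 and 0.296 in EV libraries and between 0.264 and 0.905 in KRT19 libraries, in units of SD over the libraries. EV replicate 3 was above KRT19 replicates 2 and 3, so the groups overlapped. The 5 genes with the highest r were TOP3A, a DNA topoisomerase (0.950), WDR4, a subunit of a tRNA methyltransferase (0.949), IMP4, a nucleolar ribosome assembly factor (0.948), ZNF229, a zinc finger gene (0.946), and LETM1, a mitochondrial inner membrane protein (0.944). The 100th gene of this order had r = 0.803. With 9502 genes ranked over only 8 libraries, values this high can also arise between unrelated genes. The order is a description, and a relation of these genes to the targets was not tested.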

How the data were processed

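RNA-seq was compared between 4 EV and 4 KRT19 libraries, grouped by the sample titles. Per the labels and the values, the authors counted whole reads for each gene and deposited those counts as they were, without scaling. The submitters' processing notes name hg38, Bowtie 0.12.2, featureCounts 1.5.0-p3 and DESeq2, without their roles or order. Strand and multi-mapping settings are not given in the sources used here, so overlapping or near-identical genes carry uncertain counts. Of the 75-base words of a gene, the share that also occurs in another gene was 7.47% for YAP1, 7.96% for WWTR1, 5.81% for TEAD2, 3.36% for CTGF, 1.79% for AMOTL2 and 0 for the other 5. Coordinates of 10 of the 10 genes match GENCODE 29.

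The fit used edgeR 4.0.16 in R 4.3.3 (filterByExpr, TMM, glmQLFit and glmQLFTest, group as the only term), and p-values were adjusted by the Benjamini-Hochberg method over 14621 genes. Log2 CPM used a prior count of 2. Intervals are at 95%. Single values, shares and correlations were tested by exact, two-sided permutation over the libraries. The study's threshold was p under 0.05, with no adjustment stated, so both counts are given. Named genes are the 10 genes, KRT19, list genes with an unadjusted p under 0.05 or the 2 highest mean CPM of their list, and the 5 genes most like the targets. The members and lists were chosen with earlier results of these data known. Alternatives used DESeq2 1.42.0 and limma 3.58.1 among others, and the procedure was tested on simulated data. The study states no model for its RNA-seq comparison, so the replicate number was not a block in the main fit. Same-numbered replicates did not deviate together (r of -0.111, -0.0239, -0.159 and 0.0567). All replicate pairs differed by more than sampling noise (chi-square per degree of freedom 2.79 to 13.6). The pairs with KRT19 replicate 3 had the highest values, 13.6, 8.35 and 7.72. Other KRT19 pairs had 2.79 to 3.76 and EV pairs 3.13 to 6.49.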

Additional observations from a re-analysis of the deposited data

Results flagged for a closer look

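The KRT19 level of KRT19 replicate 3 was flagged as a library far from the others of its group. It was 8.17 in log2 CPM against 8.28 in the other 3 libraries, a gap of 0.949 of the whole range of the 4 and above the 95% critical value of Dixon's test for 4 values. Of the 58 groups of 4 values looked at, chance alone would flag about 2.9. None of the 10 genes was flagged in either group.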

How the results depend on the processing

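WWTR1, TEAD2, TEAD4, CYR61, CTGF and AMOTL2 kept their direction in all 18 alternatives, and CTGF kept its unadjusted call in each of them. The alternative that left KRT19 and mitochondrial genes out of the library sizes gave the CTGF value and p of the main fit again. It is thus no separate check. The number of the 10 genes with an unadjusted p under 0.05, 1 by edgeR, was 3 by limma-voom with quality weights and 3 after the GC and length correction (WWTR1, CYR61 and CTGF in both), 2 after that correction with the replicate block (CYR61 and CTGF), and 1 to 4 with a library left out. It was 4 without KRT19 replicate 3 (WWTR1, TEAD4, CYR61 and CTGF) and 2 without KRT19 replicate 1 (TEAD2 and CTGF). Of all genes tested in the same settings, 9.14% were called by limma-voom, 8.18% after the correction, 6.62% with the block added, 5.35% without KRT19 replicate 3 and 8.28% without KRT19 replicate 1. None of the 10 passed an adjusted threshold in any setting. Genes past the adjusted threshold numbered 1 by edgeR, 5 by the DESeq2 Wald test, 8 by limma-voom, 71 with the looser filter, 5 after removal of GC and length trends, 8 when the replicate block was added to that, and 1 to 5 with a library left out (3 without EV replicate 1, 5 without KRT19 replicate 3). Genes with an unadjusted p under 0.05 numbered 791 by edgeR, 1337 by limma-voom, 1559 with the looser filter, 1195 after the GC and length correction and 620 to 1228 with a library left out (1228 without KRT19 replicate 1). The replicate block lowered this number to 451, with CTGF at 0.19 (edgeR unadjusted p = 0.0151, adjusted p = 0.999).

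Differences near 0 changed sign, on the log2 scale. TEAD1 was -0.00017 with upper-quartile normalization, -0.040 by limma-voom, -0.014 after removal of GC and length trends, and -0.014 when the block was added to that. AMOTL1 was 0.0078 by limma-voom. With a library left out, the range was -0.045 to 0.027 for YAP1, -0.027 to 0.050 for TEAD1, -0.0053 to 0.096 for TEAD3, -0.063 to 0.21 for ANKRD1, -0.074 to 0.012 for ACTG1, -0.079 to 0.0069 for AMOTL1, -0.10 to 0.029 for MOB1A and -0.055 to 0.022 for PTPN14. The list medians crossed 0 too, over all alternatives from -0.0029 to 0.042 for the Hippo kinases and scaffolds, -0.030 to 0.028 for the binders, -0.021 to 0.035 for polarity and junction genes, -0.017 to 0.041 for the other targets and -0.051 to 0.014 for SRF and MRTF targets. In percentage points, with a library left out, the range was -1.01 to 0.441 for the share of TEAD1 and -0.172 to 0.418 for the share of TEAD3. Centred on the group means, r of CYR61 with CTGF was -0.154 and of CTGF with AMOTL2 0.398, and after the GC and length correction, chosen after seeing the data, r of ANKRD1 with AMOTL2 was -0.110. The stricter filter (5 CPM in 4 libraries) left no value for ANKRD1. The causes were not tested. With a library left out a group holds 3, and depth limits ANKRD1 (32 to 54 counts) most.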
